A study of Mus musculus with 4 samples.

Results

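Mitochondrial ribosomal protein genes were taken as all genes on the array whose name in the scanner files starts with Mrpl or Mrps followed directly by a digit, leaving out names that contain -ps. The rule found 106 probes of 76 genes, out of 34787 genes on the array. By the structure of the ribosome, 49 of the 76 genes belong to the large subunit and 26 to the small subunit, with Mrps18a and Mrps30 counted in the large subunit despite their names. Mrps36 was kept apart, since its protein is now known as a component of the 2-oxoglutarate dehydrogenase complex. Of the 106 probes, 101 were well above background on all 4 arrays and 2 on none. The probe that stood for each gene was well above background on every array, so none of the 76 genes was lost to a filter on low values. Mrpl57 and Mrpl58 carry older names in the files (Mrp63 and Ict1), fell outside the name rule and are described with the related genes.

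The study asked how the kinase p38 alpha acts when haematopoietic stem and progenitor cells begin to divide after transplantation. Donors were male C57BL/6J mice of 10 weeks carrying the Ly5.2 marker, either wild type (WT) or with a conditional knockout of p38 alpha (cKO); the Cre driver and the deleted part of the gene were not given in the sources used here. From their femurs and tibias 2 populations of lineage-negative, Sca-1-positive, Kit-positive (LSK) cells were sorted: CD34- Flt3- cells, called long-term haematopoietic stem cells (LT-HSC), and CD34+ Flt3+ cells, called multipotent progenitors (MPP). All 4 groups shared the same handling: staining with the division dye CFSE, transplantation into Ly5.1 mice irradiated with 9.5 Gy, and a second sort of CFSE-positive marrow cells after 16 h. Each group (WT LT-HSC, cKO LT-HSC, WT MPP and cKO MPP) was 1 single-colour Agilent array, so differences between groups have no replicate and pairs of arrays carry no p-value; the number of mice behind an array was not given.

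Mitochondria keep their own ribosome, which translates the few messages of mitochondrial DNA into core subunits of the respiratory chain and the ATP synthase. Its RNAs come from mitochondrial DNA, but all of its proteins are encoded in the nucleus, made in the cytosol and imported. The small subunit binds and decodes the message, and the large subunit forms the peptide bond and holds the exit tunnel at the inner membrane; many proteins of both have bacterial counterparts and others are found only in mitochondria. Quiescent stem cells are known for a low protein synthesis rate and low reliance on respiration, and both rise as cells leave quiescence.

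Signals are given as the relative signal, the linear processed signal divided by the 75th percentile of its array, and differences as log2. Each difference has an error of 0.20 to 0.22 (log2) from the scanner software, which covers the measurement of the spots and nothing of cells, sorting or amplification. The members sat far above the detection limit: their signals were 5 to 1760 times the dimmest detected probe in WT LT-HSC and 4.99 to 1480 times in cKO MPP. All 4 arrays lay on 1 slide and were scanned together. Mapk14, the gene of p38 alpha, had 2 probes whose cKO minus WT differences were -0.58 and 0.13 in LT-HSC and 0.14 and -0.03 in MPP, and whether either probe lies in the deleted part is not known, so the genotype labels could not be checked from it. Cd34, used in the sort, had a relative signal of 5.47 in WT LT-HSC, 17.8 in cKO LT-HSC, 43.3 in WT MPP and 36.2 in cKO MPP, so the cKO LT-HSC array lay nearer the MPP arrays for this marker than the WT LT-HSC array did. Flt3, the other gene that separated the populations in the sort, had 0.83, 0.94, 2.89 and 2.09 in the same order. Ly6a, the gene of Sca-1, had 20.5, 21.2, 5.26 and 4.92, and Kit 13.8, 13.7, 20.9 and 15.2. The summed relative signal of 8 LT-HSC marker genes was 20.5, 22.4, 25.6 and 22.05, so it was not higher on the LT-HSC arrays. Of the 7 measured on both wild-type arrays, 3 were above 0 and 4 below 0 in LT-HSC minus MPP. Markers of other cell types also differed between arrays: the summed relative signal of 10 B cell genes, all well above background on both LT-HSC arrays and 6 of them on each MPP array, was 81.3, 45.3, 16.5 and 20.1. Cd22 alone gave 20.3, 20.7, 14.1 and 18.1 of it, and the other 9 genes summed to 61, 24.6, 2.35 and 1.99. That of 12 macrophage genes, with 11 or 12 above background per array, was 40.3, 32.1, 61.8 and 135.9, of which Csf1r gave 23.4, 21.9, 20.2 and 20.7 and the other 11 genes 16.8, 10.2, 41.6 and 115. That of 11 stromal and endothelial genes, with 11 above background on each LT-HSC array and 8 on each MPP array, was 44.6, 11.9, 12.9 and 12.6, of which Cxcl12 gave 23.95, 0.99, 0.53 and 0.88. The 10 erythroid genes, of which 9 were above background on every array, summed to 86.7, 47.4, 35.4 and 36.4. The part of these cells in the results below was not tested, and fewer cells of a type cannot be told apart from less RNA per cell.

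In the wild type, mitochondrial ribosomal protein genes were lower in LT-HSC than in MPP almost throughout. The median difference of the 76 genes, LT-HSC minus MPP, was -1.13 (quartiles -1.51 and -0.75), against -0.20 for the 22384 genes measured on both arrays. Below 0 lay 73 of the 76, where 59.5% of all genes did, and 63 were at least 1.5-fold lower, where 32.6% of all genes were; 0 were 1.5-fold higher, where 16.4% of all genes were. At 2-fold, 45 members were lower, with 18.1% of all genes, and 0 higher, with 9.15%. Among all genes at or above the median level, where every member lay, the median was -0.24. With the scale set instead on the probes well above background on all 4 arrays, 26.6% of all genes were lower and 20.6% higher, and 60 members lower and 0 higher.

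Mrps16, a small subunit protein with a bacterial counterpart, showed the largest difference. Its relative signal was 0.667 in WT LT-HSC, 2.18 in cKO LT-HSC, 3.51 in WT MPP and 2.39 in cKO MPP, which makes WT LT-HSC 5.26-fold lower than WT MPP (-2.40 ± 0.21, scanner error). The WT LT-HSC array was the lowest by far, the knockout arrays lay close together, and WT MPP was the highest. Mrpl16, a large subunit protein next to the peptidyl transferase centre, had 2.39 and 4.77 in WT and cKO LT-HSC and 12.2 and 9.05 in WT and cKO MPP (-2.35 ± 0.20 in the wild type). Mrpl55, a protein found only in mitochondria, had 1.88, 5.48, 9.39 and 7.63 in the same order, with a wild-type difference of -2.32 ± 0.20. For Mrpl38 the values were 0.472, 0.99, 2.32 and 1.94 (-2.30 ± 0.21), and for Mrpl17 3.20, 7.46, 14.4 and 10.5 (-2.17 ± 0.20). In each of these 5 genes both MPP arrays were above both LT-HSC arrays, and the cKO LT-HSC array lay between the WT LT-HSC array and the MPP arrays.

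By the probe that stood for each gene, only Mrps26, Mrps11 and Mrps10, all of the small subunit, were not lower in wild-type LT-HSC. None of them differed by more than its scanner error: the differences were 0.14, 0.09 and 0.06. A second probe of Mrps26 gave -0.82, at least 1.5-fold lower. Mrps10 was flat on all 4 arrays, at 103 and 104 in WT and cKO LT-HSC and 98.8 and 108 in WT and cKO MPP. Under quantile normalization its wild-type difference became 0.65. Mrpl24 (-0.11) and Mrps27 (-0.20) were the next nearest to 0.

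**Figure D1:**
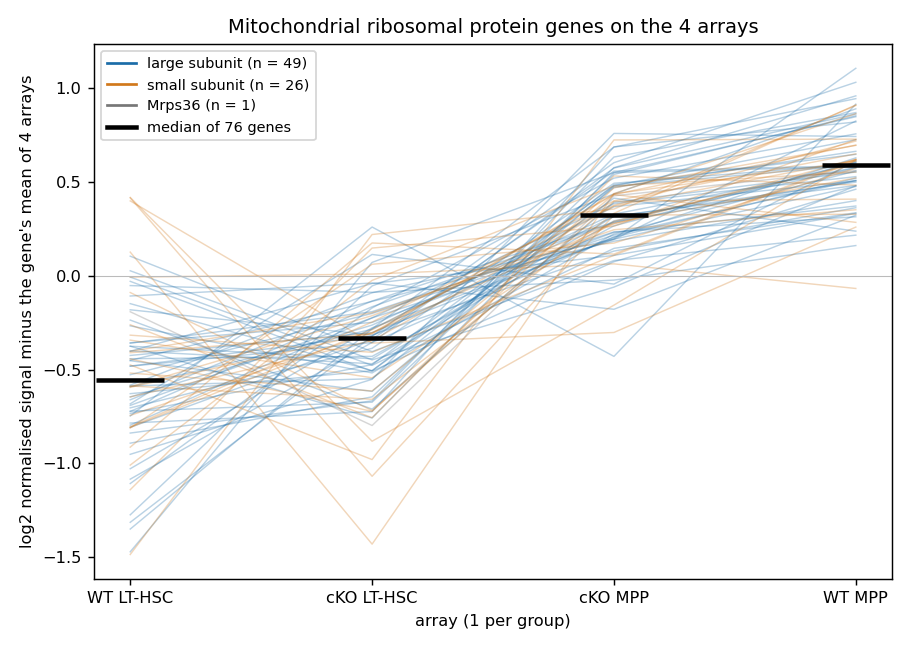
Each line is 1 of the 76 genes on the 4 arrays, drawn as its log2 normalised signal minus its own mean over the arrays (vertical axis, log2), with 1 array per group on the horizontal axis; colours mark the subunit and black bars the median of the 76 genes. Most lines rise from left to right: both MPP arrays were above both LT-HSC arrays in 66 of the 76 genes, and WT MPP was the highest array in 69.

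In the knockout the direction was the same and the size smaller. The median LT-HSC minus MPP difference was -0.65 (quartiles -0.98 and -0.45), against -0.09 for all genes, and 72 of the 76 genes lay below 0, where 57.1% of all genes did. At least 1.5-fold lower were 43 members, with 19.6% of all genes; 1 member, Mrpl35, was 1.5-fold higher, with 13.5% of all genes. At 2-fold, 17 members were lower, with 6.43% of all genes, and 0 higher, with 6.67%. On the scale of probes detected on all arrays 34 members were 1.5-fold lower and 1 higher, with 14.6% and 16.7% of all genes.

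The members with the largest differences in the knockout were other genes than in the wild type. Mrps31, a mitochondria-specific protein in the head of the small subunit, had 4.27 and 1.45 in WT and cKO LT-HSC and 7.13 and 5.31 in WT and cKO MPP, and its LT-HSC minus MPP difference was -1.87 ± 0.20 in the knockout and -0.74 ± 0.20 in the wild type. Mrps2 had 2.41, 1.70, 5.55 and 5.53 in the same order (-1.71 in the knockout, -1.20 in the wild type). The second probe of Mrps2 had 2.42, 1.76, 6.70 and 3.32 (-0.91 in the knockout, -1.47 in the wild type). Which genotype had the larger difference thus depended on the probe. For cKO minus WT in MPP the 2 probes gave -0.004 and -1.01. Mrpl28 and Mrps18a, of the large subunit, were more than 2-fold lower in both genotypes, Mrpl28 at -1.61 in the wild type and -1.41 in the knockout and Mrps18a at -1.70 and -1.31. Mrps11 did not differ between the wild-type populations (0.09) and was at -1.39 in the knockout. Its signal was low on the cKO LT-HSC array alone, at 2.36 and 0.843 in WT and cKO LT-HSC, and 2.22 on both MPP arrays.

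At the other end, Mrpl35 was at 0.69 ± 0.22 in the knockout, Mrpl40 at 0.16, Mrpl27 at 0.14 and Mrps9 at 0.06. Mrpl35 is a large subunit protein of the bacterial type, and it crossed over between the genotypes, with -1.66 in the wild type. With normexp background correction and quantile normalization its knockout difference was 0.37, below 1.5-fold.

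The sign of the population difference was shared between genotypes and its size was not. Both comparisons, which have no array in common, put 69 of the 76 members below 0. This was 90.8%, against 43.1% of 21519 genes well above background on all arrays. In both comparisons 38 of the 76 members were 1.5-fold lower, as were 2765 of the 21519 genes. Across the 76 members, however, the wild-type and knockout differences had Pearson's r = 0.05 (Spearman's rho 0.10), while across all 21519 genes r was 0.57. These are descriptions of 4 arrays; genes on an array share its depth and scaling and are not independent.

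**Figure D2:**
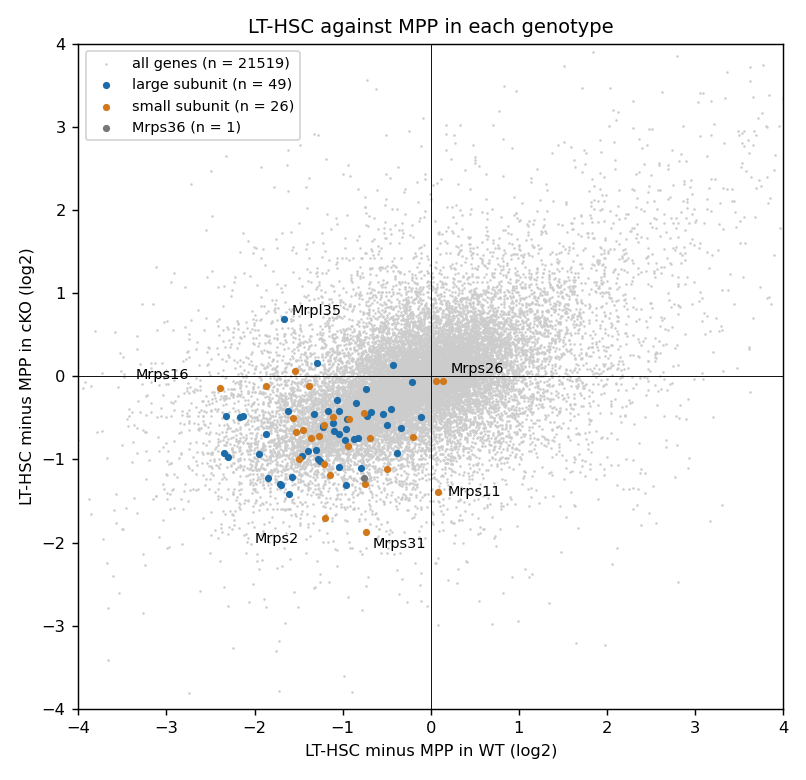
Each dot is a gene, with its LT-HSC minus MPP difference in WT on the horizontal axis and in cKO on the vertical axis (both log2); blue and orange dots are large and small subunit members, grey dots the 21519 genes well above background on all arrays, of which 170 lie beyond the axes. The members fill the lower left of the plot, with Mrpl35 above 0 in cKO and Mrps11 near 0 in WT but at -1.39 in cKO.

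Ordered by signal, 43 of the 76 genes (56.6%, against 19.3% of all genes) ran from WT MPP through cKO MPP and cKO LT-HSC down to WT LT-HSC, and 19 (25%, against 7.62%) had the same order with the LT-HSC arrays exchanged. WT MPP was highest for 69 members (90.8%, against 36.2% of all genes). The lowest array was WT LT-HSC for 48 members (63.2%, against 40.9% of all genes) and cKO LT-HSC for 26 (34.2%, against 22.7%). Neighbours in this order often differed by little: the MPP arrays differed by less than the scanner error in 29 members and the LT-HSC arrays in 23.

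Both subunits and both kinds of protein shared the population difference. In the wild type the median was -1.11 for the 49 large subunit genes and -1.17 for the 26 small subunit genes, and in the knockout -0.62 and -0.69. Genes for proteins with bacterial counterparts had medians of -1.10 and -0.64 in the wild type and the knockout (45 genes), and genes for mitochondria-specific proteins -1.15 and -0.66 (30 genes).

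A model over all 4 arrays, with genotype and population as additive terms, 1 residual degree of freedom and limma's test, called 0 of the 76 members and 0 of 25834 genes (0%) for population at a Benjamini-Hochberg adjusted p of 0.05; the lowest adjusted p among members was 0.241. At an unadjusted p under 0.05 there were 33 members, all lower in LT-HSC, with 15.8% of all genes. For genotype it called 0 members and 0% of genes (lowest adjusted p among members 0.973), and 1 member, Mrps27, had an unadjusted p under 0.05 (0.034, with 3.6% of all genes). In this fit a response that differs between populations counts as error. Other scalings and filters called 0 to 149 genes for population and 0 members.

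Within MPP, nearly all members were slightly lower in the knockout. The median cKO minus WT difference was -0.25 (quartiles -0.38 and -0.14), against -0.06 for all genes, and 71 of the 76 members lay below 0, where 56.4% of all genes did. Most of these differences were small: 5 members were at least 1.5-fold lower, with 7.51% of all genes, and 0 higher, with 6.64%, so the count at 1.5-fold was near the background and the shift showed in the sign. At 2-fold 1 member was lower, with 1.89% of all genes, and 0 higher, with 1.76%. The scanner error was exceeded downwards by 47 members. On the scale of probes detected on all arrays 66 members lay below 0 and 4 were 1.5-fold lower, with 6.06% of all genes lower and 8.25% higher.

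Mrpl35 had the largest difference in MPP, at 0.924 in WT and 0.364 in cKO (-1.35 ± 0.22), while its LT-HSC signals were 0.292 in WT and 0.587 in cKO. Mrpl9, a large subunit protein with a bacterial counterpart, had 1.79 and 0.953 in WT and cKO MPP (-0.91 ± 0.21). Mrpl40 went from 1.90 to 1.20 (-0.66) and Mrpl20 from 9.30 to 6.00 (-0.63), the latter falling under 1.5-fold at -0.57 when the scale was set on probes detected on all arrays. In LT-HSC these 4 genes had the opposite sign: Mrpl35 1.01, Mrpl9 0.75, Mrpl40 0.80 and Mrpl20 0.57.

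Mrps27, which carries pentatricopeptide repeats and binds RNA in the small subunit, was the only member at least 1.5-fold lower in cKO in both populations. This was 1 of 76 members (1.32%), where 384 of 21519 genes well above background on all arrays were. The share of the members was thus not above that of all genes. The relative signal of Mrps27 was 2.72 and 1.10 in WT and cKO LT-HSC (-1.30 ± 0.21) and 3.13 and 1.83 in WT and cKO MPP (-0.78 ± 0.20). Both knockout arrays were below both wild-type arrays. The 5 members above 0 in MPP (43.6% of all genes were) were Mrps30 (0.18), Mrps5 (0.15), Mrps10 (0.13), Mrps24 (0.05) and Mrps18a (0.02), and none of them exceeded its scanner error.

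Within LT-HSC the members spread in both directions. The median cKO minus WT difference was 0.17 (quartiles -0.14 and 0.50), close to the 0.10 of all genes, and 50 members lay above 0 (65.8% of 76, where 58.6% of all genes did). At least 1.5-fold higher were 14 members, with 18.7% of all genes, and 6 were lower, with 14.8%. The count higher was at the background and the count lower was under it. At 2-fold 7 members were higher, with 8.97% of all genes, and 3 lower, with 7.91%.

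The higher members were led by 5 genes whose lowest array was WT LT-HSC. Mrps16 differed by 1.71 ± 0.21 (3.26-fold), Mrpl55 by 1.54 ± 0.20, Mrps17 by 1.29 ± 0.21, Mrpl17 by 1.22 ± 0.20 and Mrps9 by 1.09 ± 0.21. Mrps17 had 1.06 and 2.59 in WT and cKO LT-HSC and 3.87 and 2.81 in MPP, and Mrps9 had 0.91, 1.94, 2.64 and 1.86 in the same order. For Mrps16, Mrps17 and Mrps9 the cKO LT-HSC array thus reached the level of the cKO MPP array, within 0.14 (log2). This comparison shares the WT LT-HSC array with the wild-type population comparison, so a low value on that array enters both.

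The 6 lower members were Mrps31 (-1.56 ± 0.20), Mrps11 (-1.48 ± 0.21), Mrps27 (-1.30 ± 0.21), Mrps26 (-0.76 ± 0.20), Mrps7 (-0.63 ± 0.20) and Mrps36 (-0.61 ± 0.20). Of these, 5 belong to the small subunit, where 5 of 26 genes were also 1.5-fold higher. By the probe that stood for each gene, none of the 49 large subunit genes was 1.5-fold lower and 9 were higher. The lowest, Mrpl24, was at -0.51. This depends on the probe: a further probe of Mrpl10, of the large subunit, gave -1.50 in place of -0.38. Further probes of Mrpl47, also of the large subunit, gave -0.67 and 0.60 in place of 0.33. Of 25 measured further probes of all members, 2 were 1.5-fold lower and 6 higher. Mrps7 and Mrps31 lie in the head of the small subunit, and Mrps11 on its platform beside the message. In MPP the differences of Mrps7 and Mrps11 were -0.01 and 0.00, and those of Mrps31 and Mrps26 were -0.43 and -0.56.

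The values of Mrps31, Mrps11 and Mrps27 rest on 1 designed oligo each. These oligos are shown because the lowest differences in knockout LT-HSC were read with them. Each 60-base probe had at least 1 forward frame without a stop codon. By the mm9 coordinates in the files, those of Mrps31 and Mrps11 run over more genome than their own length, so they span a gap in the genome sequence. The probe of Mrps31 maps to chr8:23538340-23539688 (plus strand), that of Mrps11 to chr7:85933622-85935544 (plus strand) and that of Mrps27 to chr13:100185032-100185091 (plus strand).
Mrps31: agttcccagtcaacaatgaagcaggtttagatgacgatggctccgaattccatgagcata
Mrps11: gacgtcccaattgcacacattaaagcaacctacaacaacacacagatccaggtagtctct
Mrps27: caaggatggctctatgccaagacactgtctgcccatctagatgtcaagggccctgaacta

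**Figure D3:**
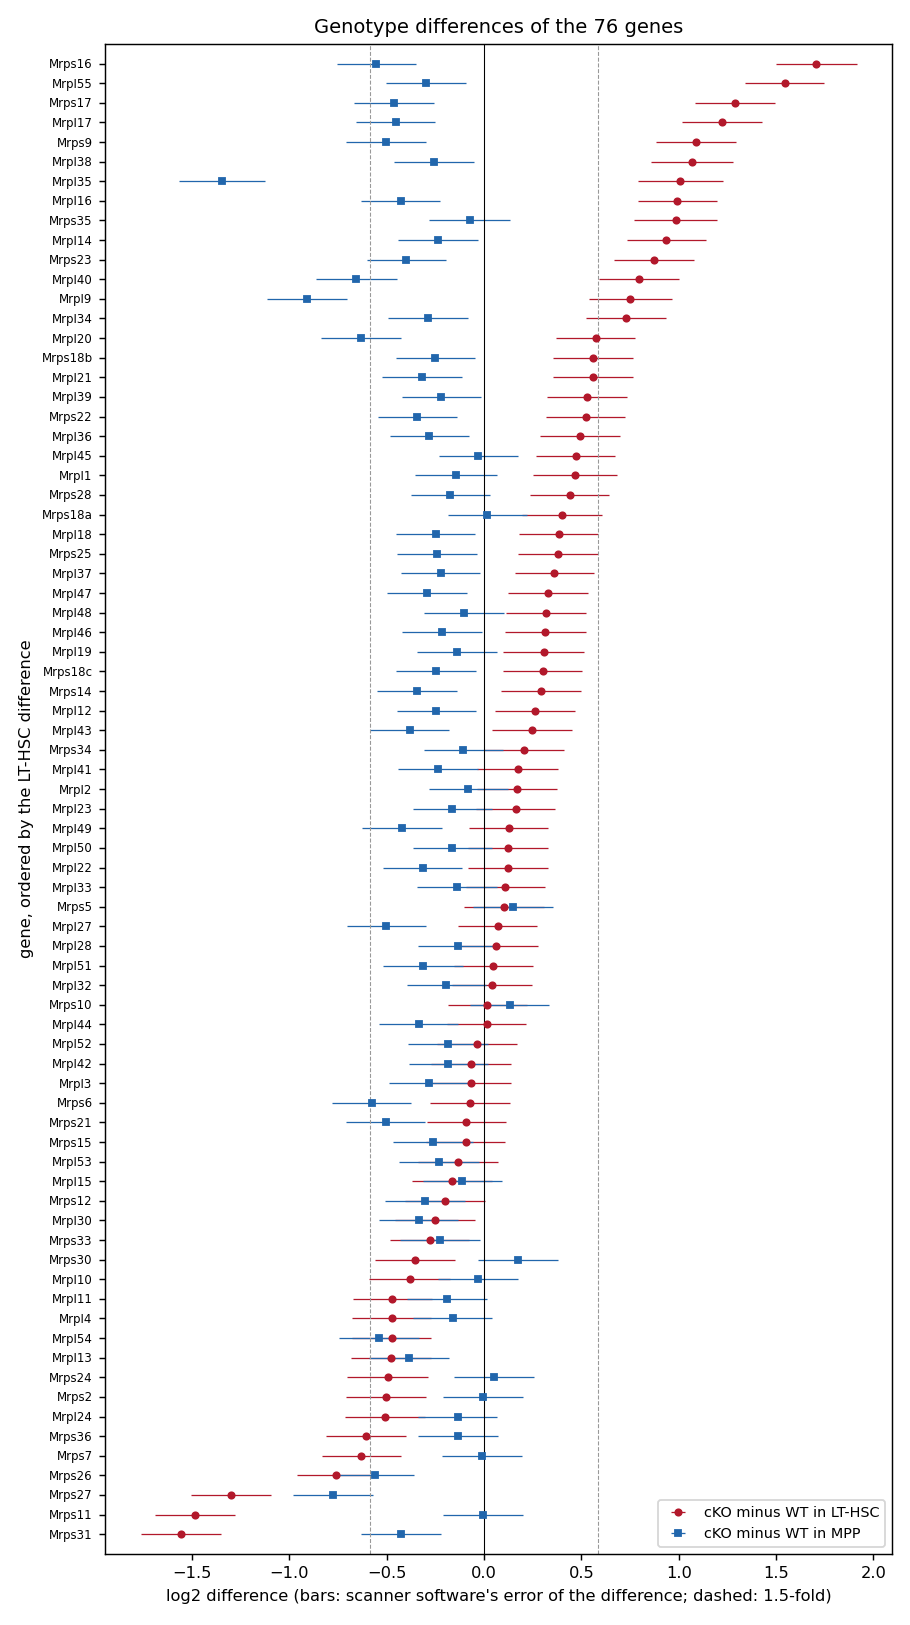
Rows are the 76 genes, ordered by their cKO minus WT difference in LT-HSC (red circles); blue squares give the same difference in MPP, both on a log2 axis with the scanner software's error as bars and dashed lines at 1.5-fold. The MPP values cluster just below 0, with 71 of 76 negative, whereas the LT-HSC values run from -1.56 (Mrps31) to 1.71 (Mrps16).

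Set against each other, the knockout differences in the populations did not follow one pattern. Above 0 in LT-HSC and below 0 in MPP were 47 members (61.8%), and 24 were below 0 in both (31.6%, against 23.7% of all genes). Above 0 in both were 3 (Mrps10, Mrps18a and Mrps5), and 2 were below 0 in LT-HSC only (Mrps24 and Mrps30). Of the 47, 43 ran from WT MPP through cKO MPP and cKO LT-HSC down to WT LT-HSC. That order held for 56.6% of the members, against 19.3% of all genes. The full shares of all genes with patterns other than below 0 in both were not summed. The difference in LT-HSC minus that in MPP had a median of 0.42 (log2) and was above 0 in 58 members (76.3%), against a median of 0.12 and 57.6% for all genes. Pearson's r between both comparisons was -0.25 across the 76 members and 0.02 across all genes; they share no array.

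Where a gene had more than 1 probe, the probes mostly gave the same sign for the population difference and less often for the genotype difference in LT-HSC. For 26 genes the files hold further probes. In the wild-type population comparison 21 of 25 measured further probes had the sign of the first, in the knockout 21 of 26, in MPP by genotype 24 of 26 and in LT-HSC by genotype 17 of 25. Among members at 1.5-fold or more, the further probe had the same sign in 19 of 22 cases for the wild-type population difference and in 3 of 7 for the genotype difference in LT-HSC; the difference between these shares was not tested.

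Some members therefore depend on the probe. Mrps7 has probes that lie end to end, at chr11:115468609-115468668 and chr11:115468668-115468727 (mm9), and in LT-HSC they gave -0.63 and 0.60 for cKO minus WT. For Mrps26 the second probe gave 0.27 in place of -0.76, and for Mrps36 0.15 in place of -0.61. In MPP by genotype the second probe of Mrps26 gave -0.23 in place of -0.56. Mrpl9's second probe, dimmer at 0.23 to 0.32 on all arrays, gave 0.04 in MPP in place of -0.91 and 0.50 in place of -2.14 for the wild-type population difference. Mrps25 had -1.11 at the first probe and 0.72 at the second for that difference, Mrpl41 -1.71 and -0.08, and Mrpl4 -0.79 and 0.05. Other genes had support from a second probe. Mrps17 had 1.29 and 0.63 in LT-HSC by genotype, Mrpl40 0.80 and 1.11, and in MPP Mrpl40 had -0.66 and -0.65. Mrps16, Mrpl55, Mrpl17, Mrpl35, Mrps9, Mrps31, Mrps11 and Mrps27 have 1 probe each.

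The proteins of the same ribosome whose genes have other names behaved like the members in the population comparisons. All 7 (Dap3, Chchd1, Ptcd3, Aurkaip1, Gadd45gip1, Mrpl57 and Mrpl58) were below 0 in both genotypes, with medians of -1.20 and -0.74, and 6 and 5 of them were 1.5-fold lower. Of all genes, 32.6% and 19.6% were 1.5-fold lower in the wild type and the knockout. Gadd45gip1, a large subunit protein also known as CRIF1, had 3.01 and 8.06 in WT and cKO LT-HSC and 13.9 and 13.1 in WT and cKO MPP, and was at -2.21 in the wild-type population comparison and at 1.42 for cKO minus WT in LT-HSC. By genotype 3 of the 7 were 1.5-fold higher and 1 lower in LT-HSC, the latter being Chchd1 of the small subunit (-0.79). Of all genes, 18.7% were higher and 14.8% lower there. In MPP all 7 were below 0, with a median of -0.24 and none at 1.5-fold.

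Genes that build the mitochondrial ribosome or work with it were lower in LT-HSC by a smaller median. Of 24 measured assembly and rRNA modification genes, 13 were 1.5-fold lower and 1 higher in the wild type (median -0.69), and 12 of 25 lower and 1 higher in the knockout (-0.43). Of all genes, 32.6% were 1.5-fold lower and 16.4% higher in the wild type, and 19.6% lower and 13.5% higher in the knockout. Malsu1, which keeps the immature large subunit from joining the small one, was at -1.69 and -0.75, while Mtg2, a GTPase of large subunit assembly, was at 0.81 in the wild type. Of 13 measured translation factors 7 were lower and 1 higher in the wild type (median -0.60), and 7 of 15 lower and 1 higher in the knockout (-0.56). Gfm1, the elongation factor that moves the ribosome along, was at -1.89, and Gfm2, which recycles ribosomes, was at 0.91 in the wild type and -1.48 in the knockout. By genotype in LT-HSC 7 of the assembly genes were higher and 8 lower, and 4 of the translation factors higher and 3 lower. In MPP 3 assembly genes and 1 translation factor were lower and 0 higher, with medians of -0.23 and -0.21. Of all genes, 18.7% were 1.5-fold higher and 14.8% lower in LT-HSC by genotype, and 6.64% higher and 7.51% lower in MPP.

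The genes of the template side had other values. Among 10 genes for transcription and copying of mitochondrial DNA, 6 were 1.5-fold lower and 1 higher in wild-type LT-HSC (median -0.72) and 0 lower and 2 higher in the knockout (-0.06). By genotype 4 were higher and 1 lower in LT-HSC, and 0 higher and 2 lower in MPP. Of all genes, 32.6% were 1.5-fold lower and 16.4% higher in wild-type LT-HSC, and 19.6% and 13.5% in the knockout. For cKO minus WT, 18.7% of all genes were higher and 14.8% lower in LT-HSC, and 6.64% and 7.51% in MPP. Tfam, which packs and transcribes mitochondrial DNA, had 0.86 and 2.06 in WT and cKO LT-HSC and 3.17 and 3.01 in WT and cKO MPP. The 13 protein genes of mitochondrial DNA, which this ribosome translates, had a median of -0.02 in the wild type, with 7 below 0, and of -0.30 in the knockout, with 13 below 0. By genotype they were at -0.39 in LT-HSC (11 below 0, 1 at 1.5-fold) and -0.16 in MPP (11 below 0). The median for cKO minus WT in LT-HSC thus had the opposite sign to that of the 76 nuclear members (0.17). Cytosolic ribosomal protein genes, 80 of which were measured, had medians of -0.76 and -0.42 for LT-HSC minus MPP in the wild type and the knockout, and 0.17 and -0.16 for cKO minus WT in LT-HSC and MPP.

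**Figure D4:**
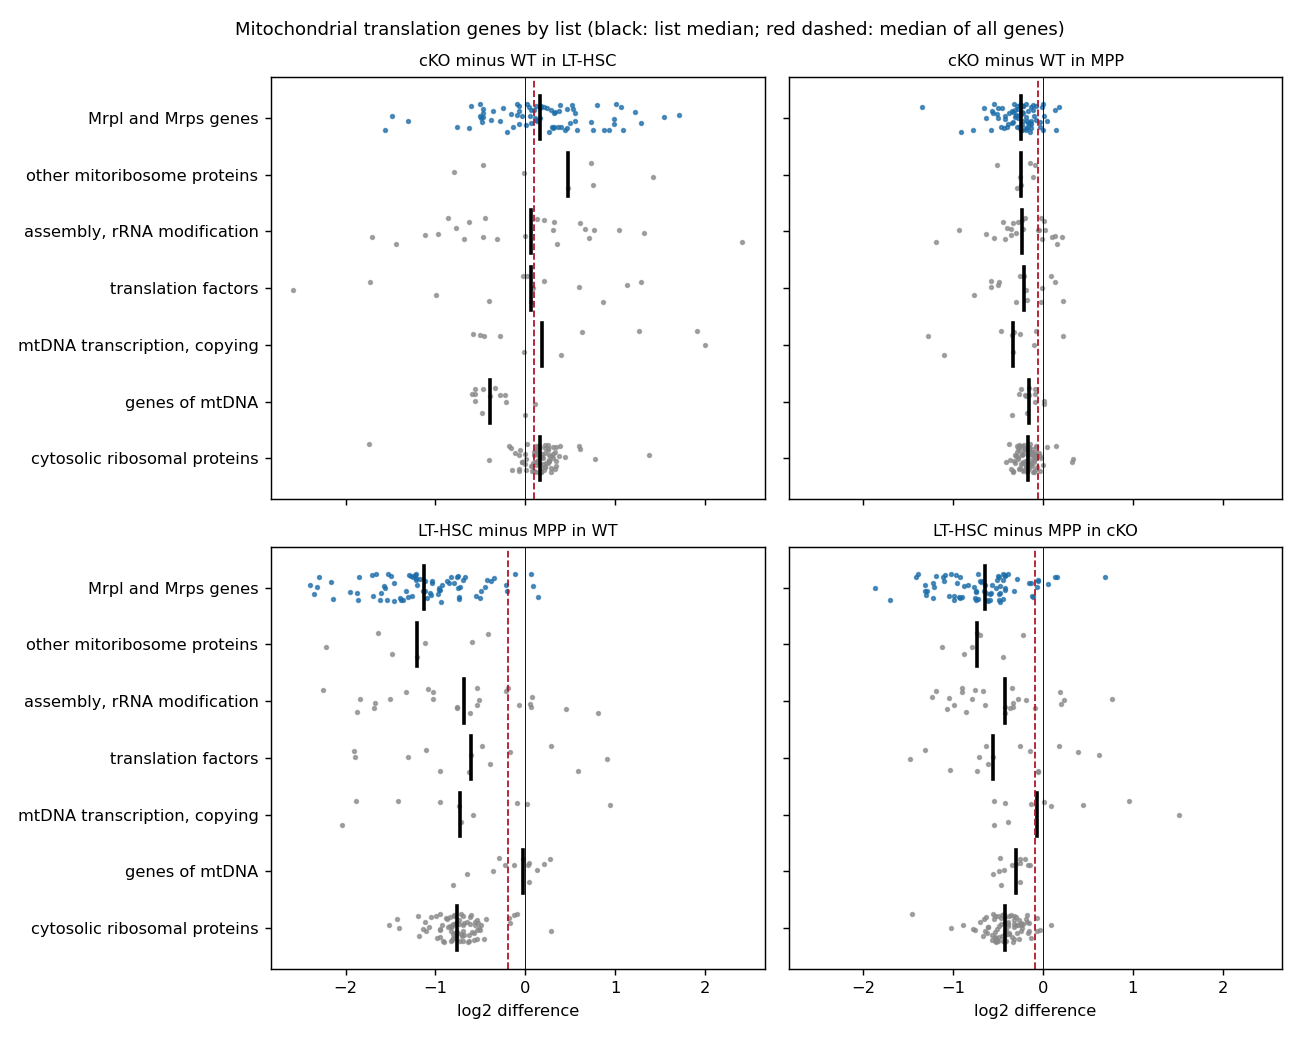
Each panel shows 1 comparison on a log2 axis, each dot a gene of the list named at the left, black bars the list medians and the red dashed line the median of all genes. In the wild-type population panel the members lie around -1.13 and the genes of mitochondrial DNA around -0.02; in cKO minus WT in MPP every list median lies below that of all genes.

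The promoters of the members share letters that the name rule did not use. In the RefSeq promoter table (GRCm38.p6; 250 bases before to 50 after each start site), 67 of the 76 genes had 73 windows. The motif CCGGAAG, recognised by ETS factors such as GABP, was found on either strand in 32.9% of the members' windows, 11.6% of windows of protein-coding genes and 8.86% of all windows. GCGCATGCG, a motif bound by NRF1, was in 9.59%, 2.35% and 1.75%, and AAGATGG, a YY1 motif, in 17.8%, 6.24% and 6.34%. CACGTG, the E-box bound by Myc and others, was in 9.59%, 7.84% and 7.15%, and the SP1 box GGGCGG in 52.1%, 46.2% and 35.7%. These shares count windows, and Mrpl2 alone gave 3 windows with an E-box. Counted by gene, the E-box was in 5 of 67 members and 1559 of 17492 protein-coding genes, so it was not more frequent in members. The SP1 box was in 33 of 67 and 8611 of 17492, nearly equal shares. ETS and YY1 matches overlapped in 0 of the members' windows, and any pair of different motifs in 2.74%. The members' windows had a median G and C content of 58.3%, against 56.3% for protein-coding genes. These are matches of letters, not measured sites.

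**Figure D5:**
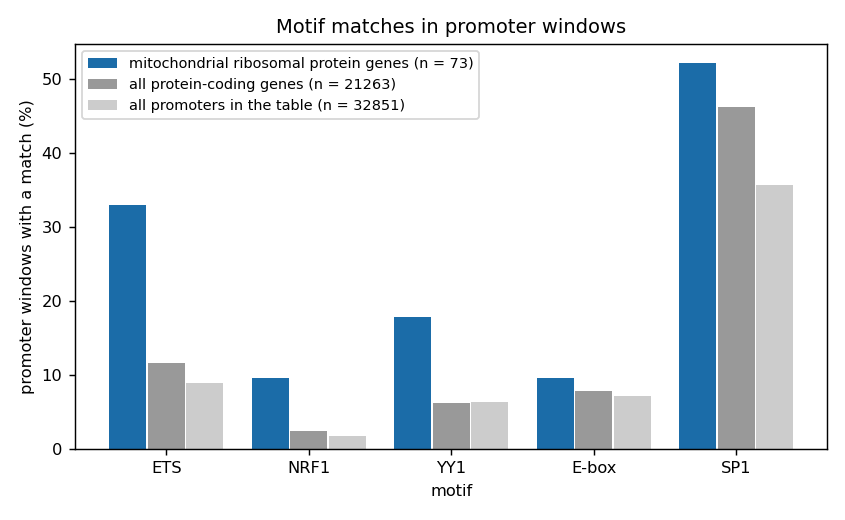
Bars give the share of promoter windows (%) that hold each motif on either strand, for 73 windows of the members (blue), 21263 of protein-coding genes (dark grey) and 32851 in the whole table (light grey). The members' bar exceeds the others for all 5 motifs, by the most for ETS, at 32.9%. Counted by gene, the members did not exceed protein-coding genes for the E-box and had nearly the same share for SP1.

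Members with and without an ETS match had similar medians. The 24 members with the motif had a median of -1.24 in the wild-type population comparison (quartiles -1.54 and -0.88) and the 43 without it -1.11 (-1.48 and -0.75); in the knockout the medians were -0.62 and -0.69, in LT-HSC by genotype 0.18 and 0.16, and in MPP -0.31 and -0.22. Of 9 measured regulators of nuclear genes for mitochondria, 2 were 1.5-fold higher and 3 lower in wild-type LT-HSC. Of all genes 16.4% were higher and 32.6% lower, so these counts were near the background. Gabpa, the DNA-binding part of GABP, had 0.46 and 1.34 in WT and cKO LT-HSC and 2.64 and 2.17 in WT and cKO MPP (-2.52 for the wild-type population difference), Nrf1 was at -0.56 and Yy1 at -0.08. Myc was at -1.54 in the wild type and -1.66 in the knockout.

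The 120 bases before the start site are shown for members at both ends of the genotype comparison, with motif matches in capitals. Mrpl17 (chr7:105811088-105811207, minus strand, higher in cKO LT-HSC) ends in an NRF1 match at position -11 and holds an SP1 box. Mrpl9 (chr3:94443216-94443335, plus strand) has overlapping NRF1 matches on both strands, and Mrps27 (chr13:99344666-99344785, plus strand, lower in both cKO arrays) an ETS match at -48.
Mrpl17: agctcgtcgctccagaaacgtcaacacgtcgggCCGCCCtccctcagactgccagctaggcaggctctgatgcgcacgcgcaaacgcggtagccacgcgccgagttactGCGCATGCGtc
Mrpl9: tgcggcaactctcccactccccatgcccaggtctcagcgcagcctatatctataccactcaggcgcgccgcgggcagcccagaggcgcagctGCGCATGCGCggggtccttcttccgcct
Mrps27: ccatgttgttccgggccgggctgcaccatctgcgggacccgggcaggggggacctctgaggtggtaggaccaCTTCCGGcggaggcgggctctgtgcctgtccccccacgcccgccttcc

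Mrps11 and Mrpl46, a gene of each subunit, are divergent neighbours whose upstream windows overlap by 41 bases on chromosome 7. Their values differed on the cKO LT-HSC array: Mrpl46 had 0.776 and 0.965 in WT and cKO LT-HSC (0.31 ± 0.21) and 1.40 and 1.21 in WT and cKO MPP, while Mrps11 was at -1.48 for the same comparison. In MPP the differences were -0.22 and 0.00. The stretches before their start sites, Mrps11 at chr7:78783011-78783130 (plus strand) and Mrpl46 at chr7:78783090-78783209 (minus strand), show the shared letters around the SP1 box, in opposite orientation, and a YY1 match at -106 of Mrps11.
Mrps11: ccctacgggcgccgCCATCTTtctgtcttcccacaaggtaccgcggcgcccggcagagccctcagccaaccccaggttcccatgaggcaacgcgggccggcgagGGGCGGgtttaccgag
Mrpl46: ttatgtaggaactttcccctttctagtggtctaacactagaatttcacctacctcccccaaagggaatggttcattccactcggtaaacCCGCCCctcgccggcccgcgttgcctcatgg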

How the data were processed

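Scanner tables of 4 single-colour arrays were used. The authors deposited spot intensities on a linear scale, background-subtracted and detrended within each array, with score flags of 0 or 1 for spots well above background, saturated or outlying. The scanner software was Agilent's, version 10.7.3.1 in the headers and 9.5.3 in the submitters' processing notes. The authors' deposited series table held ratios, each signal relative to the probe's own level over the arrays, with column medians of 91.9 to 107.3; the rule of its scaling between arrays is unknown, and it served as an alternative.

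Intensities were put on the log2 scale, and the 75th percentile over non-control probes of each array was subtracted; these log2 values were computed from the authors' intensities. Non-control probes numbered 55681, with 62.5% to 70.5% of spots well above background, 0 saturated and 137 to 151 outlying spots left out per array. Spots of a probe were averaged. Probes printed 10 times (Mrpl50, Mrps35 and Mrpl34) had SDs between spots of 0.032 to 0.118 (log2). A gene was represented by its brightest probe well above background on at least 1 array, and a difference was measured where it was well above background on both arrays. Gene names came from the RefSeq table of GRCm38.p6, with 97 member probes matched by accession and 9 by symbol. The additive fit used limma 3.58.1 in R 4.3.3 (lmFit, eBayes, Benjamini-Hochberg over all genes tested) and was tested on simulated data. Other steps used Python 3.11.15.

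The members and lists were chosen with earlier results of these data known. Named genes were the 5 highest and 5 lowest members of each comparison and members past 1.5-fold in the same direction in both genotype comparisons. Members whose probes disagree, the brightest member, and up to 4 genes per related list were also named. Mrpl46, Mrpl41, Mrpl4, Mrpl10, Mrpl47, Cd22, Csf1r, Cxcl12, Tfam, Yy1, Nrf1 and the further probes named beside members were chosen after their values were seen. The array names of mitochondrial DNA genes were added after seeing the files. The number of arrays limits the precision.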

Additional observations from a re-analysis of the deposited data

Results flagged for a closer look

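The knockout difference of the members had opposite signs in the populations: on the log2 scale its median was 0.17 among LT-HSC arrays and -0.25 among MPP arrays. The medians of all genes had the same signs, at 0.10 and -0.06, so opposite signs of the medians were not particular to the members. Gene by gene, 47 members (61.8%) were above 0 in LT-HSC and below 0 in MPP. With 1 array per group the difference between populations was not tested. Mrpl35, Mrpl9 and Mrpl40 were at least 1.5-fold higher in LT-HSC and at least 1.5-fold lower in MPP, with differences between populations of 2.35 for Mrpl35, 1.66 for Mrpl9 and 1.45 for Mrpl40, also not tested. The second probe of Mrpl40 gave 1.11 and -0.65, that of Mrpl9 gave -0.32 and 0.04, and Mrpl35 has no other probe.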

How the results depend on the processing

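Of 118 recomputed medians and counts of the members, 111 stayed within 1.5 times their value, and none changed direction. Many of them could not move, so this share says little about stability. Every member was well above background on all arrays, and alternatives that changed only the treatment of dim probes left the member values unchanged. The authors' series table gave nearly the same differences as the main scale. In MPP by genotype the median was -0.14 with quantile normalization and -0.13 with normexp and quantile normalization, where all genes lay at -0.01 and 0.00, and the count lower was 3 in place of 5 with the latter. With normexp and quantile normalization the knockout population comparison had 28 members lower in place of 43, and 0 higher in place of 1. Quantile normalization, with or without normexp, put 1 member (Mrps10) 1.5-fold higher in wild-type LT-HSC. Setting the scale on probes detected on all arrays moved the median of all genes from -0.20 to -0.05 in the wild-type population comparison and from -0.09 to 0.02 in the knockout, and that of the members to -0.98 and -0.54. With all probes of a gene averaged, Mrps26, Mrps7 and Mrpl9 no longer reached 1.5-fold (-0.25 and -0.01 in LT-HSC by genotype, -0.44 in MPP). In LT-HSC by genotype Mrps36 also fell short, and Mrpl10 of the large subunit (-0.38 and -1.50 at its probes) became 1.5-fold lower. The count lower there was 4 in place of 6. The cause of the other changes was not tested. No paired analysis was possible because each group has 1 array and the labels give no replicate numbers. Without replicates no alternative could leave a sample out, and signal over background did not limit the members.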
